A study of Sus scrofa with 63 samples.

Results

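At day 110 of gestation, close to term in the pig, the jejunum of 15 fetuses carried by Large White (LW) sows was compared according to the breed of the sire: 6 MSLW fetuses had a Meishan (MS) sire and 9 LW fetuses had an LW sire. The members were taken from the sample titles, which give the cross and the day, and are 15 of the 63 fetuses of the series. The whole series held LW, MS and both reciprocal crosses (MSLW, from LW sows, and LWMS, from MS sows) at day 90 and day 110. All fetuses were male, and both sow breeds had been inseminated with mixed semen of LW and MS boars, so that purebred and crossbred fetuses shared a uterus. The MSLW and LW fetuses therefore had mothers of the same breed and received their X chromosome from an LW sow; litters held fetuses of both kinds. Fetuses were taken by caesarean, the selected ones being those nearest the mean weight of their litter, and RNA of the mid-jejunum was hybridised to one-colour Agilent arrays, 1 fetus to an array. The sow of each fetus was not given in the labels, so litter mates were treated as independent fetuses, and the p-values measure the spread between fetuses only.

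The jejunum is the main absorptive segment of the small intestine. Its villi are lined by enterocytes whose brush border carries the disaccharidases and peptidases of terminal digestion, and which package lipid into chylomicrons. These cells are renewed from stem cells in the crypts, and in the pig they mature steeply in the last weeks before birth under the influence of cortisol. Piglets of the MS breed are known for better survival than those of the LW breed, and the comparison by sire asks what the paternal genome changes when the breed of the uterus is held constant.

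Levels are given as the log2 signal minus the 75th percentile of the same array, so that 0 marks a bright probe and a step of 1 is a doubling; differences are MSLW minus LW on that scale. A probe was called when its adjusted p was under 0.05 (limma, Benjamini-Hochberg over 40515 probes). The share of all probes well above background ranged from 51.2% (fetus 469) to 71.5% (fetus 572) in LW and from 56.5% (fetus 481) to 80.4% (fetus 851) in MSLW, and the number of fetuses limits the precision. Enterocyte markers were bright in sum in both groups, with a summed level (log2) of 8.03 to 9.39 in MSLW and 6.22 to 9.37 in LW. Of the 7 markers, 6 were well above background on all arrays of both groups. The exception, SI, was well above background in 4 of 6 MSLW and 1 of 9 LW fetuses.

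A set of LW fetuses stood apart from the rest and has to be known before any result. In fetuses 575, 559, 572 and 557 the mean level of 16 brush border genes was -1.16, -0.26, -0.22 and 0.26. The other LW fetuses lay between 1.44 and 2.17, and the MSLW fetuses between 1.32 and 2.32. The same 4 LW fetuses were also lowest for genes of lipid absorption (0.78, 1.58, 1.30 and 1.80 in the same order) and for genes of gluconeogenesis (1.22, 1.65, 1.73 and 2.01), where every other fetus of both groups was higher. They were in turn the highest of the 15 for marker lists of the deeper layers of the gut wall: smooth muscle at 5.43 to 5.69 against 5.09 or less in every other fetus, enteric neurons and glia at 0.47 to 0.81 against 0.35 or less, and fibroblasts and matrix at 3.19 to 3.55 against 3.13 or less. The part of the tissue composition in their other values was not tested. They were hybridised on slides 4, 5 and 6, and their shares of probes above background, 59.2% to 71.5%, were within the range of the group. Differences are given below with and without them; a call can also be lost without them because fewer arrays remain. They were picked after their levels had been seen, so values without them are descriptions of the remaining 5 LW and 6 MSLW fetuses.

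**Figure D1:**
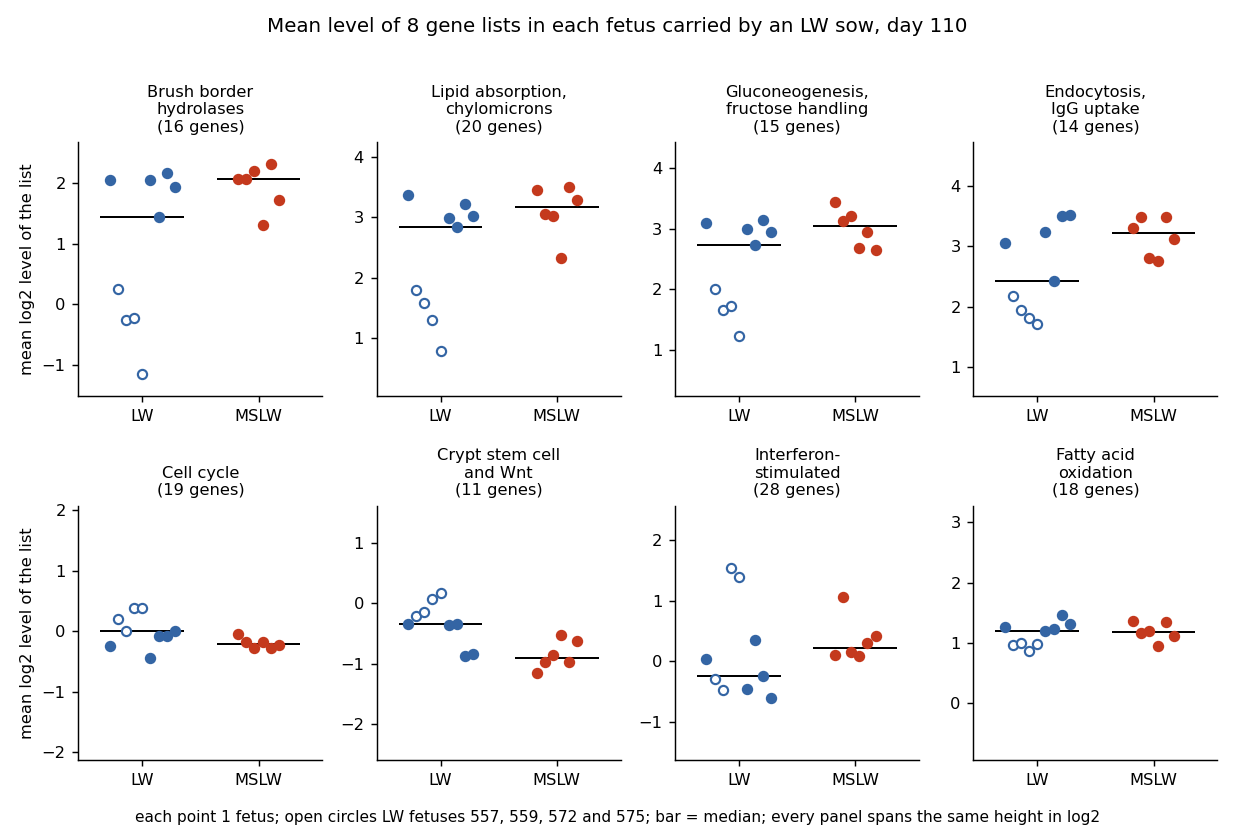
Mean log2 level of 8 gene lists in each fetus (vertical axis, log2 signal minus the array's 75th percentile, averaged over the genes of the list) for 9 LW and 6 MSLW fetuses at day 110; bars are medians. The open circles, LW fetuses 557, 559, 572 and 575, lie below all other fetuses for brush border, lipid and gluconeogenesis genes, while the remaining LW fetuses overlap with MSLW.

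The breed of the sire was associated with a small part of the transcriptome in this fit, which holds no effect of the sow. The study itself found no probe affected by the genotype of the sire. It used a mixed linear model of both parental genotypes and age over all groups. That model was not fitted here, so the counts are not like for like. Of the 40515 probes, 536 (1.32%) were called, 249 higher in MSLW (0.615%) and 287 lower (0.708%). The called probes differed by a median of 0.87 in absolute log2, from 0.29 to 6.27, against a median difference of -0.02 over all probes. Represented by its brightest probe, a gene with a name was called in 199 of 10289 cases (1.93%), 88 higher (0.855%) and 111 lower (1.08%), and in 52 genes (0.505%) the 2 groups did not overlap at all. A further 151 called probes had no gene name. Without the 4 LW fetuses that stood apart, 90 probes were called, 53 higher and 37 lower, of which 65 were among the 536. Leaving out 1 fetus moved the count between 228 (without MSLW fetus 688) and 854 (without LW fetus 670). It was 79 when the spread was estimated from these 15 arrays only, 945 with slide as a block and 3348 with array weights.

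The largest difference of all was in AADAT, the mitochondrial aminotransferase of lysine and kynurenine breakdown. Its level ran from -1.46 to 0.69 in MSLW (median -0.83) and from -8.26 to -4.97 in LW (median -6.86). All 6 MSLW fetuses were well above background, and none of the 9 LW fetuses was. The AADAT signal was therefore at least 15.8-fold higher in MSLW (adjusted p = 3.52e-06). The call held without each fetus in turn and without the 4 LW fetuses (adjusted p = 3.78e-04). The group means at day 110 were -0.07 in LWMS and 0.48 in MS, against -0.71 in MSLW and -6.98 in LW. A second AADAT probe, which overlaps the first in 30 bases and so does not read a fully separate stretch, was also called higher. Whether the breeds differ in sequence under these probes was not tested.

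CYP17A1, the 17-hydroxylase and 17,20-lyase of steroid synthesis, was the gene with the next largest difference. The oligonucleotides that read it are shown because their agreement carries the result, and the capitals mark the 23 bases that the first and second share.
CYP17A1 probe 1: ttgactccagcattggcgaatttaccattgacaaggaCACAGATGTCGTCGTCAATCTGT
CYP17A1 probe 2: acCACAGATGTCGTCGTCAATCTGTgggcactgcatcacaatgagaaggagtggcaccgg
CYP17A1 probe 3: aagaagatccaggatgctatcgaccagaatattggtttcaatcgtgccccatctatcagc
A brighter probe represented the gene and gave levels of -0.52 to 1.57 in MSLW (median 0.39) and -8.13 to -2 in LW (median -3.71). Every MSLW fetus was above every LW fetus, and within each of the 5 slides that held both groups the MSLW fetuses were higher. The log2 difference was 4.79 ± 0.76 (SE; adjusted p = 1.59e-04), and the 3 probes printed above gave 3.67, 3.13 and 2.28, the last not called (adjusted p = 0.0597). On the first and second of these no LW fetus was well above background, so their values are measured differences to background, as for AADAT. The brighter probe was well above background in 4 of 9 LW fetuses, so its difference is also in part one to background. LW fetuses 557, 559, 572 and 575 had the lowest levels, and without them the difference was 3.17 (adjusted p = 0.0411). Of the 8 genes of steroid synthesis that could be tested, of 12 on the list, CYP17A1 alone was called, and CYP11A1, the side-chain cleavage enzyme, differed by 0.48 (adjusted p = 0.509).

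SLC38A3, a glutamine transporter that was also higher in MSLW, ranged from -1.12 to 0.12 in MSLW (median -0.36) and from -6.01 to -1.13 in LW (median -3.31), so that the groups came close without overlapping. A pair of oligonucleotides for different stretches of its transcript were both called, with log2 differences of 2.82 ± 0.62 (SE; adjusted p = 0.00914) and 1.82 (adjusted p = 0.00461), and are shown in that order.
SLC38A3 probe 1: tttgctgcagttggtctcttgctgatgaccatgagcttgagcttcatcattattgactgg
SLC38A3 probe 2: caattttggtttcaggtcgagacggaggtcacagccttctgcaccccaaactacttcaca
Without the 4 LW fetuses the difference in SLC38A3 was 1.41 and not called (adjusted p = 0.569). PGM1, which interconverts glucose 1-phosphate and glucose 6-phosphate, was between 1.96 and 3.91 in MSLW (median 3.20) and between -1.42 and 2 in LW (median 0.39). Its log2 difference of 2.62 ± 0.48 (SE; adjusted p = 0.00117) was 3.04 without the 4 LW fetuses (adjusted p = 7.31e-04). Of its 2 other probes, 1 was called and shares 55 bases with the first, and the other gave 0.55 (adjusted p = 0.218). SLC28A1, a nucleoside transporter (1.97, adjusted p = 0.0262), and IYD, which recovers iodide from iodotyrosines (2.76, adjusted p = 0.0258), were called, but without the 4 LW fetuses the differences were 0.86 and 0.76 and not called.

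Other genes among the largest differences were higher in MSLW. BCL2L15, a member of the BCL2 family, ranged from 1.49 to 3.84 in MSLW and from -1.51 to 1.07 in LW, without overlap (difference 2.58 ± 0.42 SE, adjusted p = 2.4e-04). AMOTL2, an angiomotin-like protein of cell junctions, was read by a single oligonucleotide, shown because the LW fetuses fell into separate levels on it.
AMOTL2 probe: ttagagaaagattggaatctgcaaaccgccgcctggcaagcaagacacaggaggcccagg
Its level was -2.61 to -0.71 in MSLW (median -1.67) and -6.85 to -2 in LW (median -5.16). Of the LW fetuses, 557 and 572 lay in the MSLW range, 469 and 575 close to it and the others far below it. The probe was well above background in 6 of 6 MSLW and 3 of 9 LW fetuses, so that its differences depend in part on LW values at background. The difference was 2.80 ± 0.57 (SE; adjusted p = 0.00408), and 3.75 without LW fetuses 557, 559, 572 and 575 (adjusted p = 1.3e-04). ADTRP, a hydrolase of fatty acid esters, was higher by 2.72 (adjusted p = 0.00267), and a probe that carries its older symbol, C6orf105, gave 2.63 (adjusted p = 0.00461). CDKN2A, an inhibitor of the cell cycle, was well above background in 6 of 6 MSLW and 1 of 9 LW fetuses, so that its measured difference of 2.62 (adjusted p = 0.0246) depends on LW values at background. HRASLS5, a phospholipid acyltransferase, was well above background in 5 of 6 MSLW and in 0 of 9 LW fetuses. Its signal was at least 3.49-fold higher in MSLW (adjusted p = 0.0194). Without the 4 LW fetuses BCL2L15 (1.81, adjusted p = 0.0693), ADTRP (2, adjusted p = 0.184), CDKN2A (1.94, adjusted p = 0.444) and HRASLS5 (measured difference 3.54 against 3.86 with all fetuses, adjusted p = 0.221) were not called.

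CD5L, a scavenger protein released by macrophages, ranged from 1.81 to 4.62 in MSLW (median 3.19) and from -3.36 to 2.98 in LW (median 0.01), with 2 LW fetuses inside the MSLW range. It differed by 3.34 ± 0.73 (SE; adjusted p = 0.00868), and its 5 other probes were called in the same direction, the 6 probes having 5 distinct sequences. Without the 4 LW fetuses, the lowest of the 15 for CD5L, it differed by 1.92 and was not called (adjusted p = 0.464). None of 10 macrophage markers was called, all 10 were lower in sign, and their summed level was 4.41 to 5 in MSLW and 4.09 to 6.56 in LW. TF, transferrin, which carries iron in plasma, was higher by 2.06 (adjusted p = 0.0127) with no overlap, at -0.64 to 0.57 in MSLW and -3.57 to -0.86 in LW. Of its 4 other probes, all dimmer, 1 was called (2.07, adjusted p = 0.0165), and the others gave 1.68 (adjusted p = 0.0655), 0.59 (adjusted p = 0.279) and 0.05 (adjusted p = 0.977). TF was the called gene among 7 liver markers tested, whose summed level was 1.13 to 1.99 in MSLW and -0.08 to 1.32 in LW; the part of this list in the difference was not tested. ITIH4, an inter-alpha-trypsin inhibitor chain, was higher by 2.38 (adjusted p = 0.0355). Without the 4 LW fetuses neither TF (2.24, adjusted p = 0.0545) nor ITIH4 (1.76, adjusted p = 0.5) was called.

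**Figure D2:**
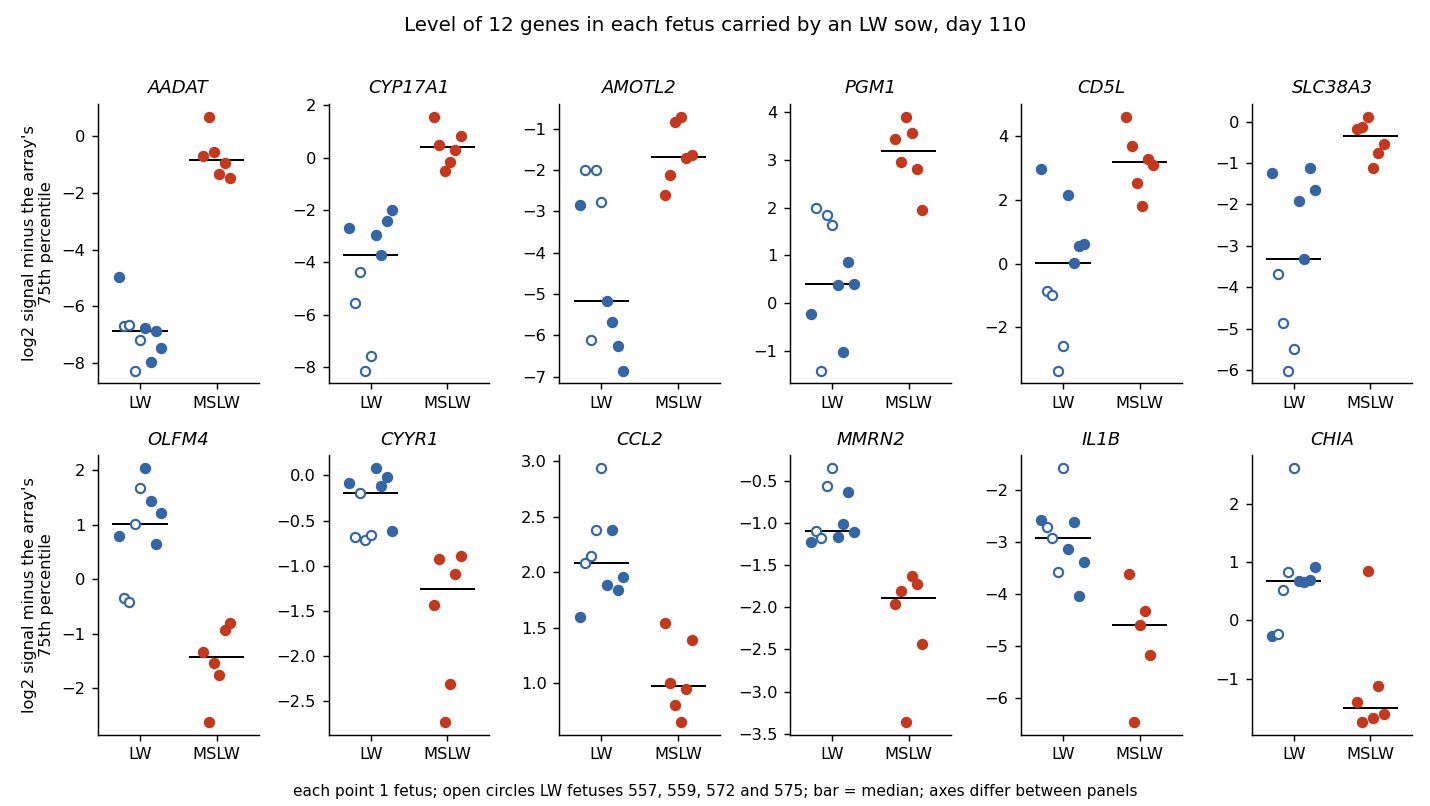
Log2 level of 12 genes in each of 9 LW and 6 MSLW fetuses at day 110 (vertical axis, log2 signal minus the array's 75th percentile; bars are medians; axes differ between panels; 5 MSLW fetuses for IL1B). AADAT, CYP17A1, SLC38A3, OLFM4, CYYR1, CCL2 and MMRN2 show no overlap, and the open circles (LW fetuses 557, 559, 572 and 575) lie lowest for CYP17A1, CD5L and SLC38A3 but not for AADAT, PGM1 or OLFM4.

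Among genes lower in MSLW the largest difference was in OLFM4, a secreted glycoprotein of crypt cells. Its level was -2.62 to -0.80 in MSLW (median -1.43) and -0.41 to 2.04 in LW (median 1.01). The groups did not overlap, and the difference was -2.39 ± 0.53 (SE; adjusted p = 0.00878). It stayed called without each fetus in turn and without the 4 LW fetuses (-2.72, adjusted p = 0.0282). OLFM4 was the called member of the 11 crypt stem cell and Wnt genes tested, of 15 on the list; 9 were lower in sign and the median was -0.45, or -0.13 without the 4 LW fetuses. ASCL2, a transcription factor of crypt stem cells, was below every LW fetus in every MSLW fetus but was not called (-0.73, adjusted p = 0.0955), and LGR5, the receptor that marks these cells, differed by -0.45 (adjusted p = 0.476).

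CYYR1 and MMRN2 were also lower in MSLW. The CYYR1 oligonucleotide printed here was called at -1.28 (adjusted p = 0.0392), whereas another probe of the same sequence gave -0.49 and was not called, so that equal sequences differed between spots.
CYYR1 probe: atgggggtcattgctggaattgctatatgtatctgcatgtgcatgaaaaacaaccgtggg
The brightest CYYR1 probe, of a different sequence, was -2.73 to -0.89 in MSLW and -0.72 to 0.08 in LW, without overlap, and differed by -1.23 ± 0.24 (SE; adjusted p = 0.00318). The call held without each fetus in turn and without the 4 LW fetuses (-1.41, adjusted p = 0.0111). MMRN2, a matrix glycoprotein of endothelium, was -3.36 to -1.63 in MSLW and -1.23 to -0.35 in LW, again without overlap (difference -1.23 ± 0.26 SE, adjusted p = 0.00504; without the 4 LW fetuses -1.12, adjusted p = 0.1). Of its 4 other probes, all lower in sign, 1 was called (-1.66, adjusted p = 0.0189). The others gave -1.34 (adjusted p = 0.36), -1.90 (adjusted p = 0.0606) and -0.74 (adjusted p = 0.251). None of 8 endothelial markers was called, and their summed level, 4.64 to 5.09 in MSLW and 4.63 to 5.47 in LW, overlapped. Of these markers 7 were lower in sign in MSLW, with a median of -0.27, or -0.05 without the 4 LW fetuses. Their part in the difference of MMRN2 was not tested.

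CCL2, the chemokine that draws monocytes, was 0.65 to 1.54 in MSLW (median 0.97) and 1.60 to 2.94 in LW (median 2.08), without overlap, and its 3 probes, of 2 distinct sequences, were all called lower. The difference of -1.08 ± 0.25 (SE; adjusted p = 0.0165) was lost without LW fetus 575 (adjusted p = 0.0502) and without the 4 LW fetuses (-0.88, adjusted p = 0.305). IL1B, an inflammatory cytokine, was measured in 5 MSLW fetuses and was lower by 1.88 (adjusted p = 0.0317), but on 1 of the 4 slides that held both groups it was higher. CHIA, an acidic chitinase, was lower in 5 of 6 MSLW fetuses (-1.74 to -1.13) than in any LW fetus, while MSLW fetus 560 stood at 0.85 (difference -1.83, adjusted p = 0.0233). IFNW1, interferon omega, was lower by 1.09 (adjusted p = 0.0394), a call lost in 10 of the 15 fits that left out 1 fetus. Without the 4 LW fetuses these genes were not called, although IL1B and CHIA kept differences of -1.69 (adjusted p = 0.294) and -1.65 (adjusted p = 0.212); IFNW1 was at -0.62 (adjusted p = 0.693). The rest of the 15 largest negative differences, between -2.38 and -1.12, were in GPR83, NPM2, MYRIP, CEP78, NKAIN1, MAP7D1, C14orf101, SPATS2 and UTP18. None of these was called without the 4 LW fetuses, but the differences were then of similar size for CEP78 (-1.28), NKAIN1 (-1.11), C14orf101 (-1.20), UTP18 (-1.34), NPM2 (-2.05) and GPR83 (-2.02) and smaller for MYRIP (-1.24), MAP7D1 (-0.83) and SPATS2 (-0.86). UTP18, a factor of ribosomal RNA processing, was the one of them with no overlap (-1.12, adjusted p = 0.0256). MYRIP rested on MSLW fetus 688, at -6.89, without which its difference was -0.67. The other probes of MYRIP gave 0.05 (adjusted p = 0.971) and -0.59 (adjusted p = 0.739), and the other probe of CEP78 gave -0.22 (adjusted p = 0.525).

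The lists of digestive genes were higher in MSLW in sign without passing the test, and this followed the 4 LW fetuses. None of the 16 brush border hydrolases tested, of 18 on the list, was called, 7 were higher at an unadjusted p under 0.05 (15.4% of all probes, in either direction), 15 were higher in sign and the median difference was 1.21; without the 4 LW fetuses 8 were higher in sign and 8 lower, with a median of 0.02. LCT, lactase, was 4.67 to 5.64 in MSLW and 1.5 to 5.4 in LW (difference 1.02, adjusted p = 0.331), MME differed by 1.53 (adjusted p = 0.195) and ACE by 1.19 (adjusted p = 0.108). Of 20 lipid absorption genes 0 were called and the median was 0.79, against -0.05 without the 4 LW fetuses; APOA4, an apolipoprotein of chylomicrons, differed by 1.87 (adjusted p = 0.153). Of 14 genes of endocytosis and IgG uptake 0 were called, with a median of 0.44 and of -0.03 without those fetuses. Marker lists of other layers moved the opposite way and also with the 4 LW fetuses, with no marker called. Smooth muscle markers were lower in sign in 8 of 8 (median -0.22, or 0.04 without those fetuses), fibroblast and matrix markers in 8 of 8 (-0.35, or -0.06) and markers of neurons and glia in 6 of 8 (-0.26, or 0.13). Their part in the differences of the digestive lists was not tested. Because the 4 fetuses were picked on the brush border list, the change of that list follows from the choice. The same 4 were also the lowest or the highest of the 15 on each other list named here and on the gluconeogenesis list. The medians of those lists therefore shift with the choice as well and are no separate evidence. In whole tissue, fewer cells of a type and less RNA per cell cannot be told apart.

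Gluconeogenesis had a called gene. G6PC, glucose-6-phosphatase, which releases free glucose, was -1.57 to 0.26 in MSLW (median -0.11) and -5.10 to 0.28 in LW (median -1.90), with a difference of 1.93 ± 0.52 (SE; adjusted p = 0.042). It was 0.45 without the 4 LW fetuses (adjusted p = 0.952), and the call was lost in 8 of the 15 fits that left out 1 fetus; its 2 other probes, 1.89 and 1.69, were not called. Over the 15 genes tested, 14 were higher in sign and the median was 0.34, or 0.04 without the 4 LW fetuses. SLC5A1, the sodium-glucose cotransporter, differed by 1.34 (adjusted p = 0.0791) and PCK1, a key enzyme of gluconeogenesis, by 1.09 (adjusted p = 0.141).

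The remaining lists held few calls, to be read against 1.93% of all named genes. Of 18 genes of fatty acid oxidation and ketogenesis, ACOX2, a peroxisomal acyl-CoA oxidase, was lower (-0.65, adjusted p = 0.0268). On that list 8 were lower in sign and the median was 0.05, against 15 lower in sign and -0.14 without the 4 LW fetuses. Of 28 interferon-stimulated genes GBP5, a guanylate-binding protein, was higher without overlap (1.36, adjusted p = 0.0412), 20 were higher in sign and the median was 0.28, against 24 in sign and 0.42 without the 4 LW fetuses. None of 19 cell cycle genes was called, 16 were lower in sign and the median was -0.36, or -0.11 without the 4 LW fetuses. None of 15 cortisol and thyroid genes, 16 growth signalling genes or 22 antigen presentation genes was called, with medians of 0.14, -0.05 and 0.02. Of the 56 genes tested that the study names for age or breed, 7 were called, a larger share than the 1.93% of all named genes. CYP17A1, SLC38A3, G6PC and SDCBP2 were higher and ACOX2, CCL2 and LGI1 lower. That list was chosen on these fetuses among others and is not independent evidence. SDCBP2, a syntenin, differed by 1.43 (adjusted p = 0.00987) and LGI1 by -0.61 (adjusted p = 0.0289). ACOX2 (-0.52), GBP5 (1.23), LGI1 (-0.44) and SDCBP2 (0.88) were not called without the 4 LW fetuses. Among the 15 fits that left out 1 fetus, the call was lost in 11 for GBP5, in 7 each for ACOX2 and LGI1 and in 0 for SDCBP2.

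A comparison of sires bears on imprinted genes, which are read from the copy of 1 parent. Of 14 genes with an active paternal copy, MAGEL2 was higher in MSLW, at -3.81 to -2.16 against -5.31 to -3.27 in LW (difference 1.35 ± 0.37 SE, adjusted p = 0.0485). That call was lost in 11 of the 15 fits that left out 1 fetus and without the 4 LW fetuses (1.65, adjusted p = 0.0831). The same difference by sire in MAGEL2 was 1.57 at day 90 (adjusted p = 0.0116) and 1.44 in fetuses of MS sows (adjusted p = 0.0223), in fetuses that do not enter the comparison at day 110. IGF2 differed by 0.52 (adjusted p = 0.49) and PEG3 by -0.25 (adjusted p = 0.803). Of 10 genes with an active maternal copy none was called; H19 differed by 2.39 (adjusted p = 0.0582). The X chromosome, which both groups received from LW sows, had 4 calls among 353 genes (1.13%), against 1.88% of 9507 autosomal genes, and neither of 2 Y chromosome genes tested was called.

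The same comparison by sire at day 90, in 17 other fetuses of LW sows, gave 271 called probes (0.669%), 175 higher (0.432%) and 96 lower (0.237%). Of the calls 71 were shared in the same direction, 13.2% of those at day 110 and 26.2% of those at day 90, and none was opposite; among the 536 probes called at day 110, 92.5% had the same sign at day 90, against 59% of all probes. AADAT (measured difference 5.28, adjusted p = 3.28e-05), BCL2L15 (2.57, adjusted p = 9.18e-05), AMOTL2 (2.21, adjusted p = 0.0251), GPR83 (-2.16, adjusted p = 0.0457) and MMRN2 (-1, adjusted p = 0.0228) were called at both ages, as was MAGEL2. CYP17A1 differed by 0.16 at day 90, but its means, -6.89 in MSLW and -7.04 in LW, lay below the lowest signal well above background of any array. G6PC differed by 0.05, with means of -5.59 in MSLW and -5.64 in LW, within the range of those lowest signals. For these genes a small difference at day 90 therefore cannot show that the difference by sire was absent. CD5L differed by -1.14. No probe was called when the difference at day 110 was tested against that at day 90 (limma, interaction term). An unadjusted p under 0.05 was reached by 2278 probes (5.62%), near the share that chance alone gives at that threshold. A dependence on age was therefore not shown for CYP17A1 (4.64, adjusted p = 0.261) or CD5L (4.49, adjusted p = 0.261). The CYP17A1 value rests on day 90 levels at background. With the authors' processed values 3 probes were called, with normexp 1 and with array weights 27.

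In fetuses of MS sows at day 110, MS (MS sire, 7) minus LWMS (LW sire, 9), 443 probes were called (1.09%), 96 higher (0.237%) and 347 lower (0.856%). Of these 67 were called in the same direction as in LW sows, 12.5% of the 536 and 15.1% of the 443, and none was opposite. CYYR1 (-1.91, adjusted p = 7.12e-08), MMRN2 (-1.98, adjusted p = 8.86e-08), CHIA (-1.82, adjusted p = 0.0147), IFNW1 (-1.37, adjusted p = 0.00231), UTP18 (-1.08, adjusted p = 0.0223), MAP7D1 (-1.08, adjusted p = 0.0204), C14orf101 (-1.18, adjusted p = 0.0123) were lower with an MS sire under both sow breeds, and MAGEL2 was higher under both.

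The difference by sire differed between the sow breeds for 80 probes (0.197%), 62 higher in LW sows (0.153%) and 18 lower (0.0444%), by the interaction term. This term equals both crossbred groups minus both purebred groups, so that an effect of the sow and a departure of the crossbreds from the purebred midpoint cannot be told apart. The group means of the reciprocal crosses were close in MTFP1 (0.24 in MSLW and 0.84 in LWMS, against 1.11 in LW and -4.54 in MS), as they were in AADAT. CYP17A1 differed by 4.79 with an MS sire in LW sows, in part to background. In MS sows it differed by -1.89 and was not called (adjusted p = 0.292), and probes 1 to 3 gave -0.98, -0.72 and -0.08 there. The interaction was 6.68 ± 1.05 SE (adjusted p = 2.11e-04), or 5.06 without the 4 LW fetuses (adjusted p = 0.0154). The interaction was also called on CYP17A1 probes 1 and 2 (adjusted p = 0.00349 and 0.00828) and not on probe 3 (adjusted p = 0.22). AADAT differed by 0.55 with an MS sire in MS sows (interaction 5.72, adjusted p = 0.00754; without the 4 LW fetuses 5.54, adjusted p = 0.0956), and its value rests on LW arrays that were not above background. CD5L (interaction 4.82, adjusted p = 0.0143) and SLC38A3 (3.74, adjusted p = 0.0366) had differences of -1.48 and -0.92 in MS sows, not called there (adjusted p = 0.507 and 0.738). Without the 4 LW fetuses these interactions were 3.39 and 2.34 and not called (adjusted p = 0.496 and 0.846). For other genes the larger difference was the one in MS sows. MTFP1, a protein of mitochondrial fission, was -5.38 with an MS sire in MS sows and -0.87 in LW sows (interaction 4.51, adjusted p = 1.37e-13), and METTL7B, a methyltransferase, was -4.10 and -0.01 (interaction 4.09, adjusted p = 2.11e-04). TSKU, a secreted proteoglycan, was -1.18 and 0.53 (interaction 1.72, adjusted p = 5.76e-04), and AQP10, an intestinal channel for water and glycerol, was -4.83 and 1.31 (interaction 6.14, adjusted p = 0.00312). Without the 4 LW fetuses 13 probes were called for this interaction, 12 of them among the 80, with MTFP1 (4.14, adjusted p = 6.83e-11), METTL7B (3.29, adjusted p = 0.0314) and TSKU (1.47, adjusted p = 0.0463) called and AQP10 not (4.42, adjusted p = 0.185).

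**Figure D3:**
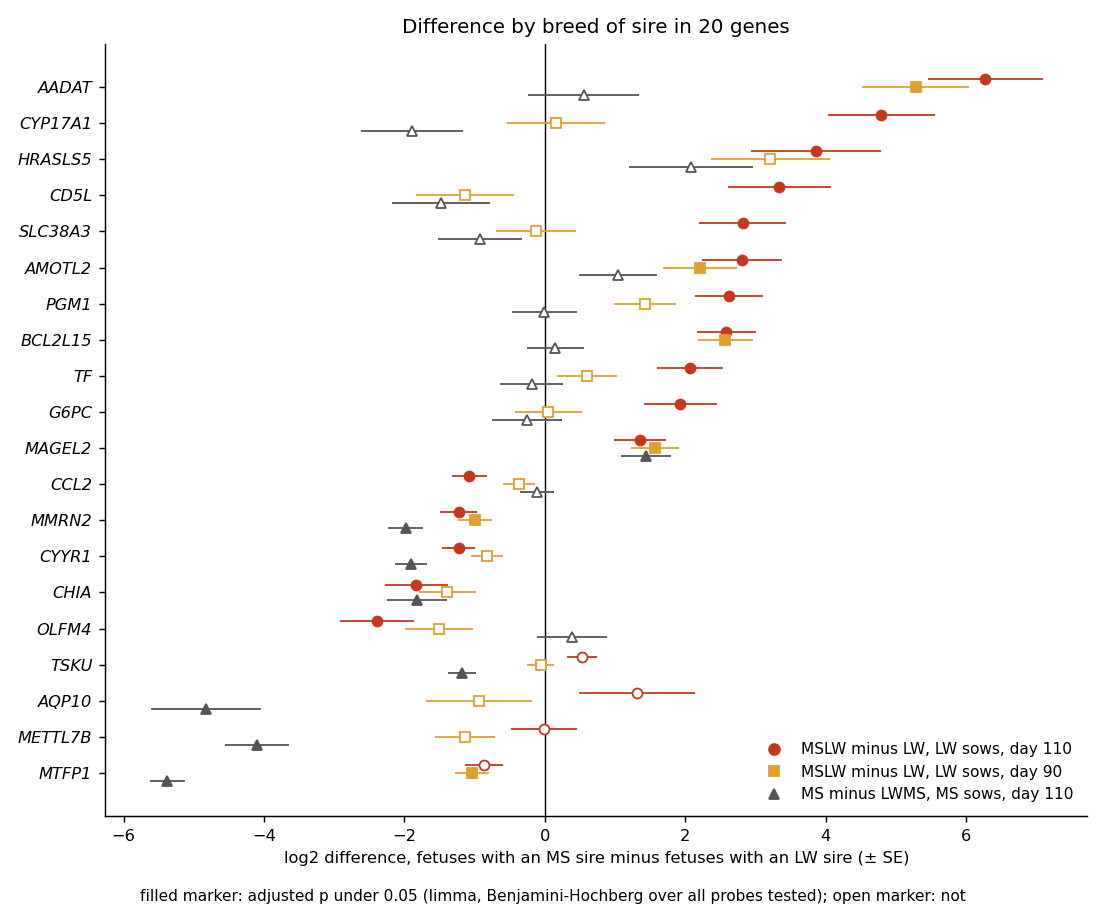
Log2 difference between fetuses with an MS and an LW sire (horizontal axis, ± SE) in LW sows at day 110 (circles), LW sows at day 90 (squares) and MS sows at day 110 (triangles) for 20 genes; filled markers are called. BCL2L15 had nearly the same difference at both ages in LW sows (2.58 and 2.57) and 0.15 in MS sows, and CYYR1 and MMRN2 lay below 0 in all 3. The values of AADAT in LW sows are measured differences to LW arrays not above background.

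Genes that change with age were described in the 15 fetuses through a list drawn from the other sow breed. In fetuses of MS sows, 793 probes rose and 959 fell from day 90 to day 110 (adjusted p under 0.01 and at least 1 in log2). Of the rising probes 31 were called higher in MSLW (3.91%, against 0.615% of all probes) and 7 lower (0.883%, against 0.708%). Their median difference was 0.30, which was 0.03 without the 4 LW fetuses. Of the falling probes 7 were called higher (0.73%, against 0.615% of all probes) and 4 lower (0.417%, against 0.708%). Their median was -0.10, or -0.01 without the 4 LW fetuses. The age score of a fetus, the mean log2 level of the rising probes minus that of the falling probes, had a mean of 1.90 with an SD of 0.34 in the 9 LW fetuses, and a mean of 2.15 with an SD of 0.21 in the 5 left without the 4 that stood apart. In the 6 MSLW fetuses the mean was 2.21 with an SD of 0.47, and the ranges overlap (1.42 to 2.41 and 1.49 to 2.69). The lowest LW scores, 1.42, 1.52, 1.61 and 1.80, were those of fetuses 559, 557, 572 and 575. Of the 249 probes called higher, 211 were in neither age list, as were 276 of the 287 called lower.

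**Figure D4:**
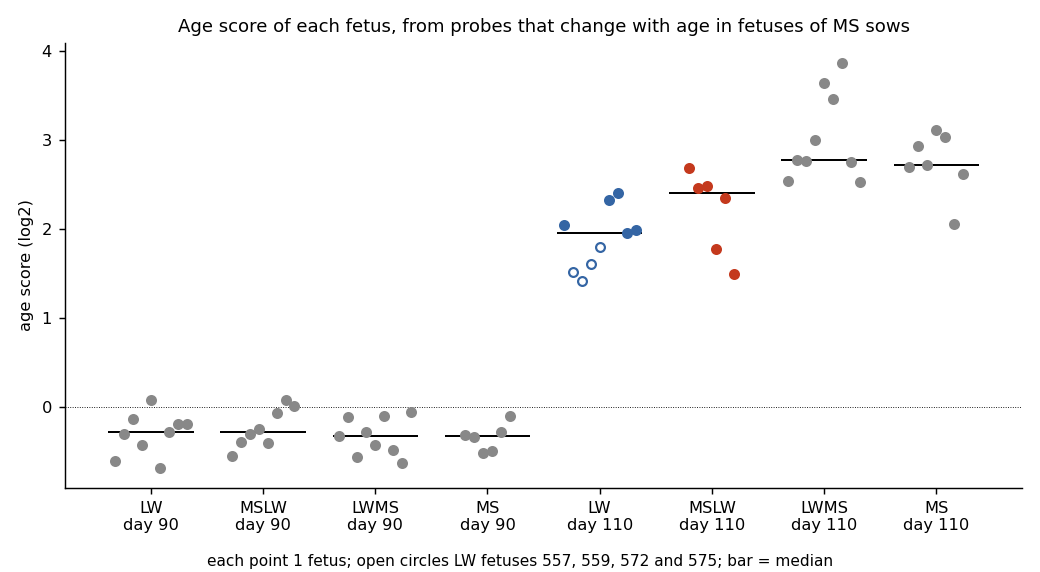
Age score of each fetus in the 8 groups (vertical axis, log2; bars are medians), computed from probes that change with age in fetuses of MS sows, which for LWMS and MS fetuses is no independent value. LW and MSLW fetuses at day 110 overlap, with open circles for LW fetuses 557, 559, 572 and 575, and all scores at day 90 lie near 0 or below.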

How the data were processed

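Mid-jejunum RNA of 63 fetuses was measured, 15 of them in the comparison reported here. The scanner files deposited by the authors hold background-corrected spot intensity from Agilent Feature Extraction 10.10.1.1, 1 array per fetus, with flags of 0 or 1 per spot. The authors also deposited a matrix of normalized log2 values, used as an alternative. Here spots of controls and spots with an outlier flag were dropped, the log2 intensity of each array was centred on its 75th percentile, and spots of a probe were averaged. Of 60305 probes, 40515 were kept, those that were well above background on a share of 0.75 or more of the arrays in at least 1 group. Group means of the 8 groups were fitted over 63 arrays with limma 3.58.1 in R 4.3.3 and p-values were adjusted by Benjamini-Hochberg. The study fitted a random effect of the sow, which could not be fitted here because the labels do not name the sow. On simulated data for MSLW minus LW at day 110 with 40515 probes, 58.4% of changes of 1 and 92.9% of changes of 2 in log2 were recovered, with 8 false calls among 159.

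Gene names came from the array annotation, gene tables and accessions (27008 of 60305 probes named), and a gene is represented by the probe with the highest mean level. Named genes were the 15 with the largest called difference in each direction, the 5 with the smallest adjusted p in each interaction where any was called, and list members. Of a called probe not above background in 1 group, the fold in signal is a lower bound set by the lowest signal well above background on each array. Differences between the breeds in the sequence under a probe were not examined. The members and lists were chosen with earlier results of these data known. Alternatives were the background correction, normalization, centring, filter, slide, array weights and arrays fitted; 3 further ones (a covariate for the share of probes above background, and leaving out 2 or 4 named fetuses) were chosen after seeing the data. The fold changes of the study left out fetuses 469 and 484, which were kept here. Printed oligonucleotides were read from the sequence column of the scanner files; their places in the genome were not used here.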

Additional observations from a re-analysis of the deposited data

Results flagged for a closer look

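A single fetus lay far from the others of its group in 8 of 82 groups of fetuses examined for the named genes, where chance gives about 1 in 20. LW fetus 469, the array with the lowest share of probes above background, was the highest for AADAT (-4.97) and HRASLS5 (-3.83) and the lowest for MAP7D1 (1.49). LW fetus 670 was lowest for NPM2 (-4.30) and LW fetus 575 highest for CHIA (2.61). Among MSLW fetuses, 560 was highest for CHIA (0.85), 578 highest for IFNW1 (-1.80) and 688 lowest for MYRIP (-6.89).

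The difference by sire at day 110 differed between LW and MS sows, by the interaction term of the fit, for 8 named genes; the term equals crossbreds minus purebreds. The difference of differences was 5.72 for AADAT, 6.68 for CYP17A1, 4.82 for CD5L and 3.74 for SLC38A3. It was 4.51 for MTFP1, 4.09 for METTL7B, 1.72 for TSKU and 6.14 for AQP10.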

How the results depend on the processing

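The main settings called 536 probes for the difference by sire, 0 for its dependence on age (2278 at an unadjusted p under 0.05) and 80 for its interaction with the breed of the sow (62 higher, 18 lower). The difference by sire gave 146 calls with median centring, 311 without the filter, 945 with slide as a block, 3348 with array weights, 79 with these 15 arrays alone and 938 without fetuses 469 and 484. Of the alternatives chosen after seeing the data, the covariate gave 1039 and leaving out fetuses 557, 559, 572 and 575 gave 90, a count from fewer arrays. The dependence on age gave 1 call with normexp, 3 with the authors' values and 27 with array weights, and 0 in every other fit. The interaction with the sow breed gave 39 calls with median centring (38 higher, 1 lower), 138 with the authors' values, 50 without the filter, 741 with array weights, 125 without fetuses 469 and 484, 322 with the covariate (185 higher, 137 lower), 156 without fetuses 851 and 469 and 13 without the 4 LW fetuses (all higher). With array weights its calls were 462 higher and 279 lower. The other alternatives stayed within 1.5 times the main counts.

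Leaving out 1 fetus gave 228 to 854 calls for the difference by sire and 50 to 268 for its interaction with the sow breed. The first moved by over 1.5 times without LW fetuses 557 (300), 559 (277), 575 (250), 572 (317), 852 (836) and 670 (854) and without MSLW fetuses 476 (294), 481 (324) and 688 (228). The causes were not tested.

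AADAT, CYP17A1 and OLFM4 stayed called in each of the 13 alternatives and the 15 fits without 1 fetus. AMOTL2, PGM1 and CYYR1 lost the call with these 15 arrays alone (adjusted p = 0.171, 0.0507 and 0.0812). Among the 15 fits without 1 fetus, the call was lost in 10 for NPM2, in 9 each for ITIH4 and SPATS2 and in 7 each for GPR83 and IYD. METTL7B, near 0 (-0.01), turned to 0.10 with slide as a block, 0.31 with array weights, 0.08 without fetuses 469 and 484, 0.05 with the covariate and 0.35 without fetuses 851 and 469, and ranged from -0.23 to 0.26 without 1 fetus. AQP10 turned from 1.31 to -0.41 without the 4 LW fetuses. No paired analysis was possible because each fetus number occurs once and the labels do not name the sow. Dim probes limit AADAT and HRASLS5 to lower bounds. In LW fetuses CDKN2A was well above background in 1 of 9, AMOTL2 in 3, CYP17A1 in 4 and IYD in 4. In MSLW fetuses SPATS2 was well above background in 2 of 6 and GPR83 in 3.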
